A study of Mus musculus with 60 samples.

Results

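Genes known from work on bone metastasis and on the bone loss it causes were followed cell by cell in breast cancer cells recovered from bone. The 10 genes were taken by name (Pthlh, Tnfsf11, Tnfrsf11b, Csf1, Il11, Jag1, Cxcr4, Spp1, Mmp13 and Dkk1) and make up 10 of the 47729 mouse genes counted. The cells were PyMT-Bo1, a mouse mammary tumor line of C57BL6 background carrying the polyoma middle T oncogene, into which luciferase with eGFP, H2B-mApple and the surface protein Thy1.1 had been brought by lentivirus. They were stained with the membrane dye DiD, which is diluted at each division, and injected into the left side of the heart of wild-type, young adult female C57BL6 mice. Femurs and tibias of 5 mice were pooled, and live CD45-negative tumor cells were sorted 1 per well as DiD+ (DiD intensity High, called dormant in the labels; 32 cells) or DiD- (DiD intensity Low, called proliferative; 28 cells). All cells in both groups therefore share the line, its transgenes, the dye and the host strain, and the labels name no mouse for any cell.

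In bone, tumor cells and bone cells signal to each other. PTHrP, the product of Pthlh, acts on osteoblasts, which answer with more RANKL (Tnfsf11) and less of its decoy receptor osteoprotegerin (Tnfrsf11b), and RANKL together with CSF1 drives macrophage precursors to become bone-resorbing osteoclasts. Growth factors freed from the resorbed matrix, TGF-beta among them, in turn raise PTHrP, IL-11 and the Notch ligand Jagged1 in tumor cells. CXCR4 guides cells to marrow rich in its ligand CXCL12, osteopontin (Spp1) and the collagenase MMP13 belong to the matrix side of the process, and DKK1 blocks the Wnt signal that osteoblasts need.

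Of these genes, Pthlh and Jag1 were lower in DiD+ than in DiD- cells when the counts of a group were summed, Spp1 was higher, and Csf1 differed by less than 2-fold. The Spp1 median over cells was nearly the same in both groups (2127 and 2122 CPM), and 6 of the 32 DiD+ cells held 70.6% of its DiD+ counts. Il11, Cxcr4 and Tnfrsf11b were counted in so few cells that 1 or 2 DiD+ cells set their ratio. Tnfsf11, Mmp13 and Dkk1 had 0 counts in all 60 cells. Because bones were pooled and no mouse is named, each group is 1 sample, so no test between the groups was possible and the differences have no replicate check.

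Counts on mouse genes ran from 2276789 to 7794219 per DiD+ cell (median 4653711) and from 2624405 to 6199108 per DiD- cell (median 4440161). The group sums were 146074944 and 119490098, and levels are given as CPM (counts per 1000000 of these sums), with exact Poisson intervals at 95%. Shares of cells carry exact binomial (Clopper-Pearson) intervals at 95%. The libraries hold no molecular identifiers, so intervals and limits cover counting error only. Ratios are log2 of DiD+ over DiD- with 1 CPM added to both levels, which pulls the ratio of a gene with few counts toward 0. Of the 8 epithelial markers examined, Krt8 had at least 10 counts in all 60 cells (1831 CPM over DiD+ and 3395 CPM over DiD- cells). Krt18 had them in 29 DiD+ and 28 DiD- cells (728 and 1578 CPM), and both were lower in DiD+ cells like Pthlh and Jag1. Epcam, Krt19, Krt7 and Cldn4 had 0 counts, Cdh1 had 1 count, and Cldn7 had 11 counts in DiD+ and 73 in DiD- cells. In 6 DiD+ wells (19, 21, 24, 30, 37 and 88) and 1 DiD- well (84), 11 to 13 of 13 macrophage or monocyte markers reached 10 counts, although CD45-positive cells had been gated out. Over the whole list the summed marker level ran from 0 to 19911 CPM in DiD+ cells (median 44.5) and from 0 to 1765 CPM in DiD- cells (median 24.5), and each of the 13 markers had a count in both groups. With erythroid, neutrophil, platelet and stromal markers added, 8 DiD+ and 3 DiD- wells held RNA of a host cell type. No well reached such a share of the 8 osteoblast or osteocyte markers (at most 3) or of the 7 osteoclast markers (at most 2).

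**Figure D1:**
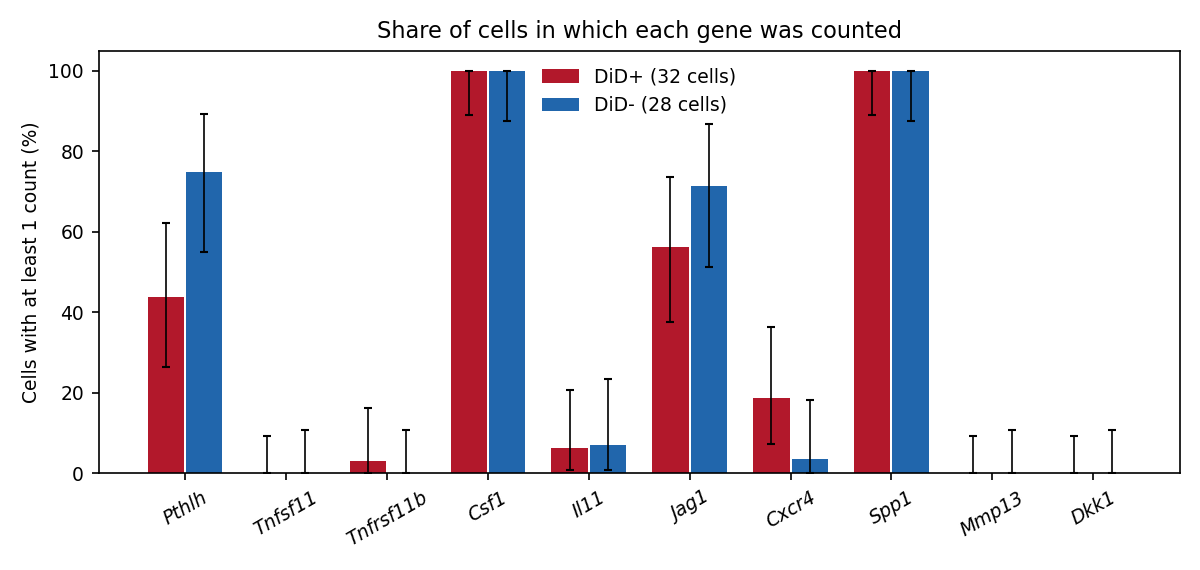
Share of cells with at least 1 count of each gene (vertical axis, percent), in 32 DiD+ cells (red) and 28 DiD- cells (blue). Bars start at 0 and lines give the exact binomial 95% interval, or for a share of 0 the limit of 3 cells; Csf1 and Spp1 were counted in every cell, Pthlh in 43.8% and 75%, and Tnfsf11, Mmp13 and Dkk1 in none.

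Pthlh (ENSMUSG00000048776, chromosome 6, 147252101 to 147264183, minus strand, GRCm38; protein coding) encodes PTHrP, the tumor-derived hormone that starts the osteolytic cycle. Pthlh was counted in 14 of the 32 DiD+ cells (43.8%, with an interval of 26.4% to 62.3%) and in 21 of the 28 DiD- cells (75%, 55.1% to 89.3%). Over DiD+ cells the level ran from 0 to 102 CPM with a median of 0, and over DiD- cells from 0 to 407 CPM with a median of 25.8. The ranges overlapped, but 6 DiD- cells (28, 86, 40, 33, 72 and 78) lay above the highest DiD+ cell, and 18 of 32 DiD+ cells had no count.

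The sums were 2215 counts in DiD+ cells, or 15.2 CPM (14.5 to 15.8), and 8814 counts in DiD- cells, or 73.8 CPM (72.2 to 75.3). Pthlh was thus 4.86-fold higher in DiD- cells, a log2 ratio of -2.21 (counting interval -2.27 to -2.15). Both the share of cells and the level in positive cells differed: among cells with a count, the median was 23.3 CPM (DiD+) and 65.4 CPM (DiD-). DiD+ cell 36 held 22.6% of the DiD+ counts and DiD- cell 28 held 28.6% of the DiD- counts. With any 1 cell left out the ratio stayed between -2.51 (without DiD+ cell 36) and -1.81 (without DiD- cell 28). Drawing 2200000 counts at random from each cell left both shares at 43.8% and 75%.

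Wells with macrophage RNA moved with the Pthlh level inside the DiD+ group. Of the 6 DiD+ macrophage-marker wells 5 held at least 10 Pthlh counts, and together they held 898 counts, 40.5% of the DiD+ sum, at 30.8 CPM. The other 26 DiD+ wells were at 11.3 CPM, with at least 10 counts in 8 of them. Without the macrophage-marker wells the ratio was -2.64, so it was larger in size and in the same direction. Whether the Pthlh counts in these wells came from the tumor cell was not tested.

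The DNA just upstream of the first exon is printed for Pthlh, Jag1, Spp1 and Csf1, the 4 genes above 10 CPM in either group, since these carry the group ratios that did not rest on 1 or 2 cells. Sequences come from RefSeq (GRCm38.p6), in which 9 of the 10 genes had an entry, and read 5′ to 3′ on the strand of the gene. Capitals mark matches to 6 short motifs: TATAA on the gene strand, and on both strands the box CCAAT, the GC box motif GGGCGG, the motif of AP-1 factors, which is TGANTCA, the motif of Runx factors, which is TGTGGT, and the motif of RBPJ, the DNA-binding partner of Notch, which is TGGGAA. The stretch of Pthlh is 80 bases long (chr6:147264184-147264263) and that of Jag1 126 bases (chr2:137116645-137116770).
Pthlh: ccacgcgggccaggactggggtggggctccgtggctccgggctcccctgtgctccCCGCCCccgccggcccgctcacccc
Jag1: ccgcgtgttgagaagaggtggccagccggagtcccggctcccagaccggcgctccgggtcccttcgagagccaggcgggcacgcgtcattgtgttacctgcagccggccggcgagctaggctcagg

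Both stretches were rich in G and C, at 82.5% for Pthlh and 70.6% for Jag1. In Pthlh a GC box on the opposite strand ended 20 bases before the exon. Of the 32851 RefSeq promoter entries, 8.27% held one in their first 80 bases. Jag1 held no match to any of the 6 motifs in its window. Of all promoter entries, 13.5% had a GC box and 11.8% an RBPJ motif in their first 126 bases. In other genes these first bases need not lie next to an exon. These matches describe letters only.

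Jag1 (ENSMUSG00000027276, chromosome 2, 137081456 to 137116644, minus strand; protein coding) encodes Jagged1, the Notch ligand through which tumor cells engage osteoblasts and osteoclast precursors. It was counted in 18 of the 32 DiD+ cells (56.3%, with an interval of 37.7% to 73.6%) and in 20 of the 28 DiD- cells (71.4%, 51.3% to 86.8%), and at least 10 counts in 12 and 17 cells. The level ran from 0 to 60.9 CPM over DiD+ cells (median 0.401) and from 0 to 197 CPM over DiD- cells (median 9.46). The ranges overlapped, with 5 DiD- cells (33, 86, 28, 26 and 71) above the highest DiD+ cell.

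In sum, Jag1 had 1159 counts in DiD+ cells (7.93 CPM, 7.48 to 8.40) and 3557 in DiD- cells (29.8 CPM, 28.8 to 30.8). The level was 3.75-fold higher in DiD- cells and the log2 ratio -1.78 (-1.87 to -1.70). Leaving out 1 cell moved it to -2.06 at the lowest, with DiD+ cell 69 removed, and to -1.40 at the highest, with DiD- cell 33 removed. The latter held 27.4% of the DiD- counts. Unlike Pthlh, Jag1 was seldom found in the DiD+ macrophage-marker wells. It was counted in 1 of these 6 wells (cell 88), and the ratio without the macrophage-marker wells was -1.62.

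Csf1 (ENSMUSG00000014599, chromosome 3, 107741048 to 107760469, minus strand; protein coding) encodes macrophage colony-stimulating factor, which osteoclast precursors need to survive. Every cell had a count of it. The level ran from 1.81 to 1041 CPM over DiD+ cells (median 190) and from 49.6 to 948 CPM over DiD- cells (median 279). The groups overlapped over nearly their whole range, and DiD+ cell 41, with 9 counts, was the only cell below 49 CPM.

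The Csf1 sums were 35992 counts in DiD+ cells (246 CPM, 244 to 249) and 36739 in DiD- cells (307 CPM, 304 to 311), a log2 ratio of -0.32 (-0.34 to -0.30). It stayed between -0.47 (without DiD+ cell 43) and -0.17 (without DiD- cell 32), below the 2-fold mark throughout. Csf1r, which encodes the receptor of CSF1, reached 10 counts in 6 DiD+ wells, all of them among those with macrophage markers, and in 2 DiD- wells, 1 of them well 84. Of the 7520 Csf1r counts in DiD+ wells, all but 1 count lay in these 6 wells. Csf1 itself was at 195 CPM in the 6 wells and at 259 CPM in the other 26.

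Csf1 and Spp1 differ from the first pair in having longer exon-free stretches, 250 bases each, at chr3:107760470-107760719 and chr5:104434861-104435110.
Csf1: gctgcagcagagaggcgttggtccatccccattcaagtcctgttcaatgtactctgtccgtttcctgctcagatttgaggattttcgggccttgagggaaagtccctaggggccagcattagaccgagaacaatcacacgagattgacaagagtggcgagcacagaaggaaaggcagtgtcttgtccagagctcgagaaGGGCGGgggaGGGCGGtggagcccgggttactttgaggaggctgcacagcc
Spp1: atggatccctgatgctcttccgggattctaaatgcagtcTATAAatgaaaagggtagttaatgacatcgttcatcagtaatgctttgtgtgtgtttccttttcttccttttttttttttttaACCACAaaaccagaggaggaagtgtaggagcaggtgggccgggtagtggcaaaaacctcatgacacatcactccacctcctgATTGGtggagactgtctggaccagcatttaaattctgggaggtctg
The Csf1 stretch (56.4% G and C) held 2 GC boxes, 46 and 36 bases before the start, and 32.7% of all promoter windows of 250 bases held at least 1. The Spp1 stretch (43.6%) held a TATAA 207 bases before the start, where 16% of all windows hold one, a Runx motif on the opposite strand (14.05% of windows) and a CCAAT box on the opposite strand (33.8%).

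Spp1 (ENSMUSG00000029304, chromosome 5, 104435118 to 104441050, plus strand; protein coding) encodes osteopontin, a secreted phosphoprotein of bone matrix that binds integrins and CD44. It was counted in all 60 cells. Per kilobase of exon it was the most abundant of the 10 genes in both groups, at 3448 CPM per kilobase in DiD+ and 1423 in DiD- cells, followed by Csf1 (46.7 and 58.2) and Pthlh (9.37 and 45.6). The order of Csf1 and Pthlh was the same in both groups. An overlapping gene model on the same strand, Gm42793, took 209 and 20 counts, and reads could be split between both models.

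The single-cell values of Spp1 had nearly the same median in both groups, 2127 CPM (DiD+) and 2122 CPM (DiD-). They ran from 206 to 31890 CPM over DiD+ cells and from 380 to 6712 CPM over DiD- cells, so the DiD+ range enclosed that of DiD- cells at both ends. In 6 DiD+ cells (41, 31, 29, 75, 82 and 70) the level was above that of every DiD- cell, and these 6 held 586204 counts, 70.6% of the DiD+ sum. The 6 highest DiD- cells held 46.1% of theirs.

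The Spp1 sums were 829995 counts in DiD+ cells (5682 CPM, 5670 to 5694) and 280250 in DiD- cells (2345 CPM, 2337 to 2354). That is a 2.42-fold higher level in DiD+ cells and a log2 ratio of 1.28 (1.27 to 1.28). The ratio came closest to the 2-fold mark without DiD+ cell 41 (1.02), which held 19.1% of the DiD+ counts, and was 1.37 without DiD- cell 85. Of the 6 cells, a pair also held markers of a host type, platelet markers in cell 29 (4 of 5) and stromal markers in cell 31 (6 of 11). DiD- cells held up to 5 of the same 11 stromal markers. Without all host-marker wells the ratio was 1.14, and without the macrophage-marker wells, which were at 2841 CPM in DiD+, it was 1.44. The part of host RNA in the Spp1 level was not tested.

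**Figure D2:**
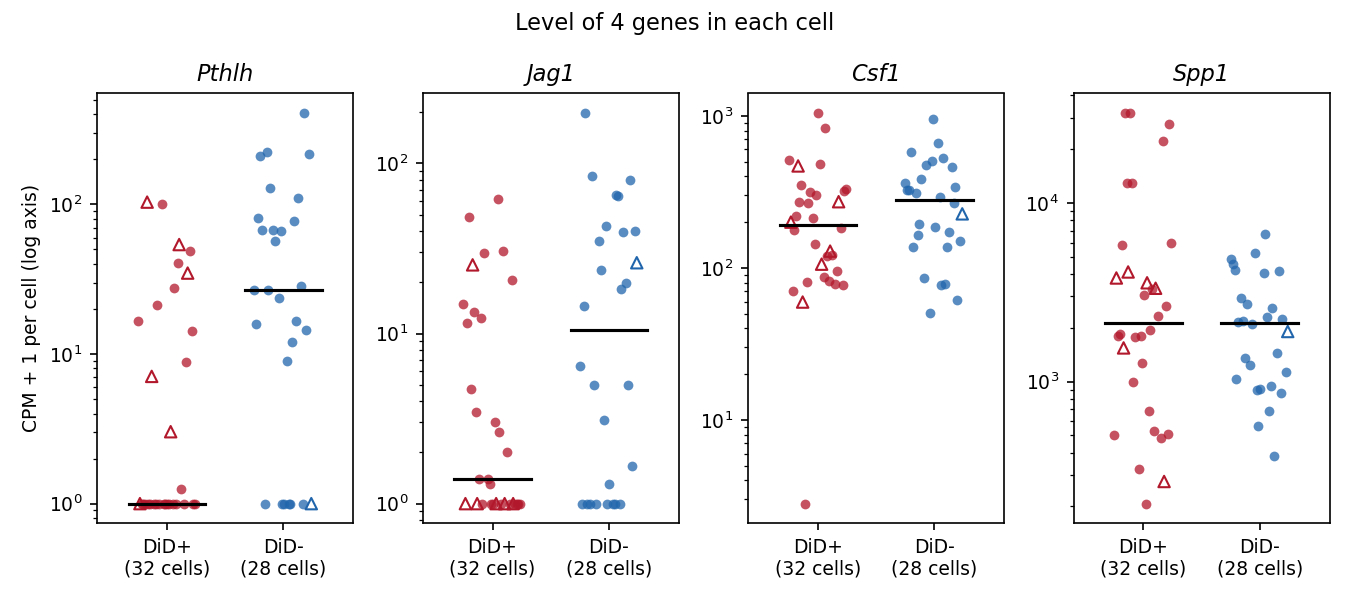
Level of Pthlh, Jag1, Csf1 and Spp1 in each cell (CPM + 1 on a log axis), with 32 DiD+ cells in red and 28 DiD- cells in blue; horizontal lines are medians and open triangles are wells with macrophage markers. Pthlh and Jag1 points at the bottom are cells with no count, Csf1 overlaps nearly fully, and 6 DiD+ cells stand above all DiD- cells for Spp1.

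Spp1 lies at the end of a cluster of bone matrix genes on chromosome 5. Its neighbors Dspp, Ibsp and Mepe had 0 counts in both groups. Dmp1, which encodes dentin matrix protein 1 of osteocytes and dentin, was counted in 8 DiD+ cells and in 0 DiD- cells. It had 4436 counts (30.4 CPM), which is at least 1210-fold higher than the 3 counts set as the limit of the DiD- group. Cell 70 held 74.03% of these counts, and 4 of the 8 Dmp1 cells (70, 31, 41 and 29) were among the 6 cells with the most Spp1.

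The other genes with counts were found in few cells. Il11 (ENSMUSG00000004371, chromosome 7, 4772373 to 4782859, minus strand; protein coding) encodes the cytokine interleukin-11, an inducer of RANKL in osteoblasts. Its 470 DiD+ counts were in 2 of 32 cells (6.25%, with an interval of 0.766% to 20.8%), 398 in cell 36 and 72 in cell 81. Its 15 DiD- counts were in 2 of 28 cells (7.14%, 0.877% to 23.5%), 8 in cell 89 and 7 in cell 71. The share of cells was thus alike at 1 count, while 2 DiD+ and 0 DiD- cells had at least 10 counts. The level was 3.22 CPM (2.93 to 3.52) against 0.126 CPM (0.0703 to 0.207), a log2 ratio of 1.91 that became 0.42 without cell 36.

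Cell 36 also had the highest Pthlh count of any DiD+ cell (500), and cell 81 had 138 Pthlh counts. In cell 36, Csf2, which encodes GM-CSF, had 17529 counts, 97.8% of the DiD+ sum. The same cell ranked first among DiD+ cells for Lif (274 counts) and Vegfa (1834 counts). It was not among the host-marker wells, and its Spp1 level, 322 CPM, ranked 30 of 32. The Krt8 level of cell 36, 358 CPM, also ranked 30 of 32.

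Cxcr4 (ENSMUSG00000045382, chromosome 1, 128588199 to 128592293, minus strand; protein coding) encodes the receptor for CXCL12, used by blood cells and many tumor cells to home to marrow. It had 219 counts in 6 of 32 DiD+ cells (18.8%, with an interval of 7.21% to 36.4%), of which 141 were in cell 21, 43 in cell 37 and 25 in cell 24. In DiD- cells its 20 counts were all in cell 34 (3.57%, 0.0904% to 18.3%). Of the 6 DiD+ cells, 5 carried macrophage markers and held 211 of the 219 counts (96.3%). The log2 ratio of 1.10 became 0.41 without cell 21 and 0.94 without cell 37, and without the macrophage-marker wells it was -0.13, at 0.0684 CPM (DiD+) and 0.171 CPM (DiD-). The part of macrophage RNA in the Cxcr4 level was not tested.

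Tnfrsf11b (ENSMUSG00000063727, chromosome 15, 54250619 to 54278484, minus strand; protein coding) encodes osteoprotegerin. All 175 counts were in DiD+ cell 17 (3.13% of DiD+ cells, with an interval of 0.0791% to 16.2%), at 34.1 CPM in that cell and 1.20 CPM over the group. DiD- cells had 0 counts, so the DiD+ level was at least 47.7-fold higher than the limit of 3 counts, but it rests on 1 cell, and 0 counts are left in both groups without it. Cell 17 was not among the host-marker wells and had 80 Pthlh and 72 Jag1 counts.

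Tnfsf11 (RANKL; ENSMUSG00000022015, chromosome 14, 78277445 to 78308043), Mmp13 (collagenase 3; ENSMUSG00000050578, chromosome 9, 7272514 to 7283331) and Dkk1 (ENSMUSG00000024868, chromosome 19, 30545863 to 30549665) had 0 counts in every cell. A count of 0 allows up to 0.0205 CPM over the DiD+ group and 0.0251 CPM over the DiD- group, and up to 9.38% of DiD+ and 10.7% of DiD- cells with a count (3 counts or 3 cells). The 3 genes were therefore not detectable at this depth in either group.

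**Figure D3:**
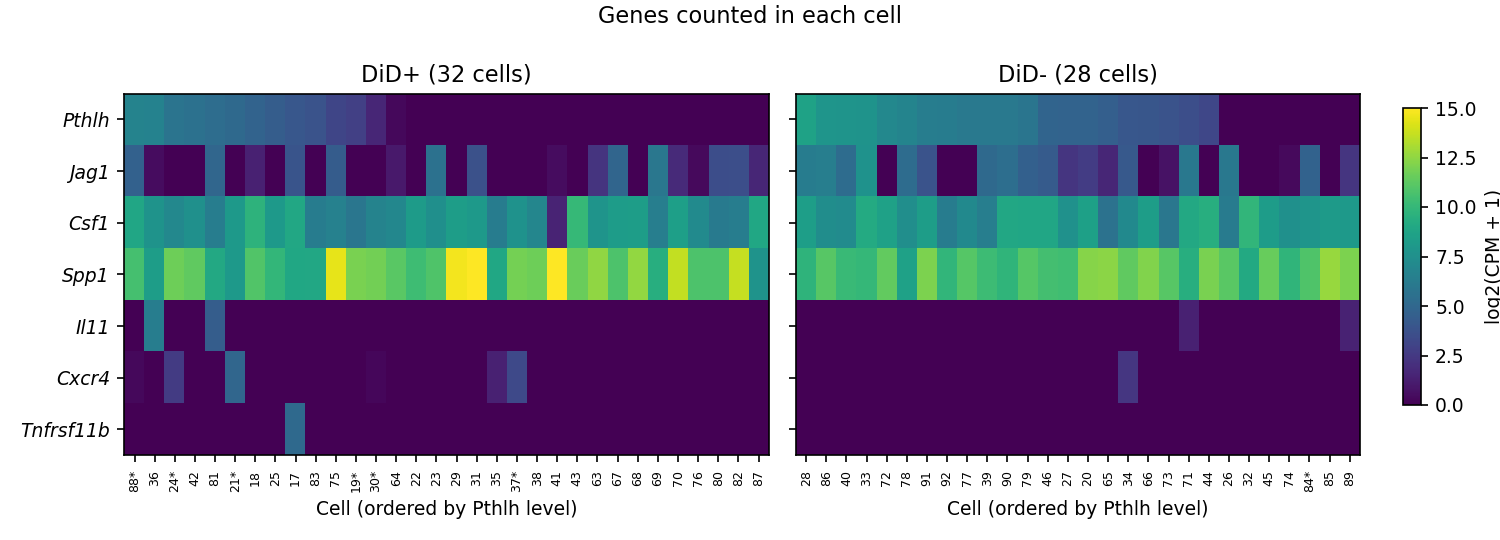
Level of the 7 genes with a count (rows) in each of 32 DiD+ and 28 DiD- cells (columns, ordered within a group by Pthlh), colored by log2(CPM + 1) from 0 to 15; an asterisk marks a well with macrophage markers. Csf1 and Spp1 fill every column, Pthlh fills 14 DiD+ and 21 DiD- columns, Cxcr4 fills 6 and 1 columns, Il11 2 and 2, and Tnfrsf11b a single DiD+ column.

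Read against all genes, 7 of the 10 reached 1 CPM in either group. Il11, Cxcr4 and Tnfrsf11b passed only through the DiD+ group, where they were high, so they had to differ, and the counts that follow describe the list and support nothing. At 1 CPM, 4 genes were past 2-fold higher in DiD+ cells (Spp1, Il11, Cxcr4 and Tnfrsf11b), beside 12.1% of the 12432 genes that reached this level, and 2 were lower (Pthlh and Jag1), beside 4.86%. At 10 CPM in a group, 4 genes remained, of which 1 was higher (Spp1; 6.38% of 8814 genes) and 2 were lower (Pthlh and Jag1; 3.18%). The median log2 ratio of the list was 1.10 at 1 CPM and -1.05 at 10 CPM, against 0.04 and -0.00 over all genes, so its sign depends on the filter.

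**Figure D4:**
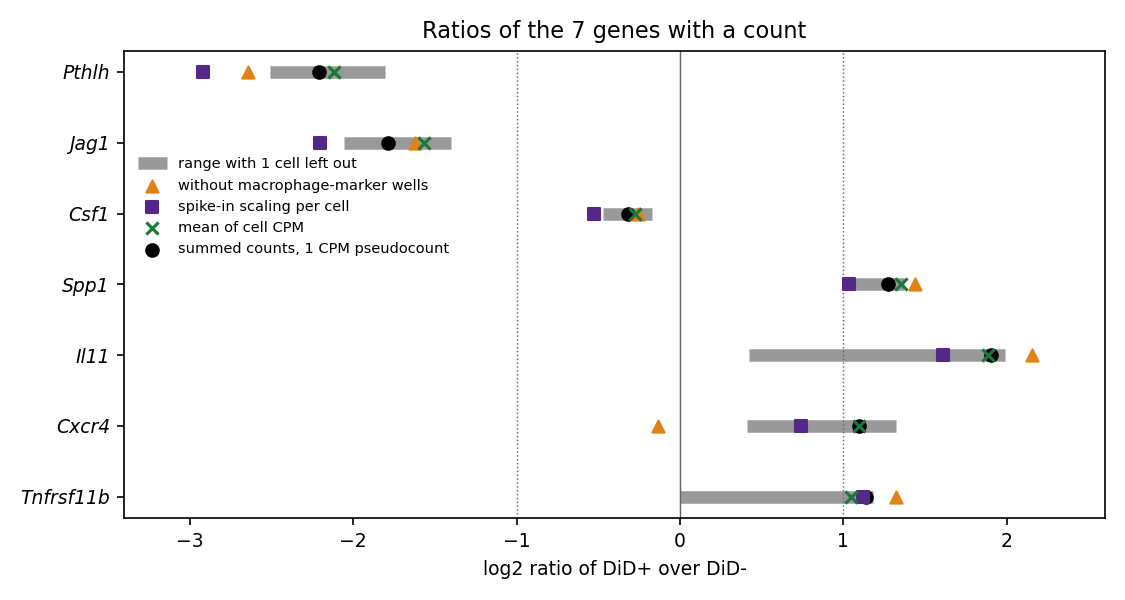
Log2 ratio of DiD+ over DiD- for the 7 genes with a count: black points from summed counts, gray bars the range with 1 cell left out, and colored symbols 3 other ways of computing it; dotted lines mark 2-fold. Pthlh, Jag1 and Spp1 stay past 2-fold under all of these, Csf1 stays inside, and Il11, Cxcr4 and Tnfrsf11b fall to 0.42, 0.41 and 0.00 when 1 cell is removed.

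Scaling each cell by its spike-ins moved the median over all genes from 0.04 to -0.34. Under it Pthlh was at -2.92, Jag1 at -2.21, Csf1 at -0.52 and Spp1 at 1.03, so each kept its direction, also relative to that shift. Cxcr4, at 0.74 against 1.10 before, was no longer past 2-fold under this scaling. That value is not taken relative to the shift over all genes.

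The genes were combined differently from cell to cell. At 10 counts or more, 1 to 5 of the 10 genes were held per DiD+ cell (median 3) and 2 to 5 per DiD- cell (median 3.5), and the medians became 3 and 3 after thinning to equal depth. Pthlh and Jag1 were found together at 10 counts in 14 DiD- cells, with 7 holding Pthlh alone, 3 Jag1 alone and 4 neither. In DiD+ cells 4 held both, 9 Pthlh alone, 8 Jag1 alone and 11 neither. Put as shares, 66.7% of the Pthlh cells in the DiD- group also held Jag1 and 82.4% of the Jag1 cells also held Pthlh, against 30.8% and 33.3% in the DiD+ group. Across the 28 DiD- cells the log2 levels of both genes correlated with Pearson's r of 0.42 and Spearman's rho of 0.42, and across the 32 DiD+ cells -0.03 and -0.07. Each point is 1 library, and these coefficients are given as descriptions.

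Pthlh and Spp1 tended weakly to run in opposite directions over cells. The Pearson r was -0.33 over all 60 cells (rho -0.32), -0.38 within DiD+ (rho -0.34) and -0.26 within DiD- cells (rho -0.29). For Jag1 and Spp1 the r was -0.16 over all cells (rho -0.24), -0.01 within DiD+ (rho -0.06) and -0.39 within DiD- cells (rho -0.43). Of the 6 cells with the most Spp1, only cell 75 had a Pthlh count (33 counts). The summed level of 12 S phase genes, whose median was 855 CPM (DiD+) and 2567 CPM (DiD-), had an r of 0.35 with Pthlh (rho 0.36) and -0.33 with Spp1 (rho -0.28) over the 60 cells. Within groups the r with S phase genes was 0.25 in DiD+ and 0.15 in DiD- cells for Pthlh, and -0.38 and -0.14 for Spp1. The summed level of G2/M genes had an r of 0.37 with Pthlh over all cells, 0.18 within DiD+ and 0.45 within DiD- cells. The library total had an r of 0.12 with Pthlh and -0.10 with Spp1.

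Genes most alike in pattern were sought among 8601 genes for the 4 genes that reached 10 counts in 15 or more cells, by Pearson r of log2(CPM + 1) over the 60 cells. For Pthlh these were Prl2c3 (0.66), Prl2c2 (0.61) and Hmga1 (0.60), of which the Prl2c pair encodes near-identical placental hormones (proliferins) whose reads can be split between copies, and Hmga1 a chromatin protein. For Jag1 they were St3gal1 (0.63), Ralgapb (0.55) and Mtbp (0.52). The neighbors of Csf1 were Lmo1 (0.55), Phgdh (0.54) and Map1b (0.51), at 0.64, 0.57 and 0.61 within DiD+ cells and 0.20, 0.43 and 0.22 within DiD- cells. For Spp1 they were Masp1 (0.54), Postn (0.53) and Ccn5 (0.52), and these held within DiD+ cells (0.69, 0.64 and 0.56) but fell to 0.13, -0.03 and 0.22 within DiD- cells. Prl2c3, at 64.7 CPM (DiD+) and 239 CPM (DiD-), and St3gal1, at 12.3 and 37.4 CPM, had the same direction between the groups as Pthlh and Jag1. Because they were picked over both groups together, a shared direction is partly built into the choice.

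The receptors, mediators and relatives of these genes were taken as a list of 74 further genes in 8 roles. At 1 CPM in a group 49 of the 74 passed, of which 12 were past 2-fold higher in DiD+ cells and 3 lower, with a median log2 ratio of 0.19, against 1503 higher and 604 lower of 12432 genes and a median of 0.04. Of those past 2-fold, Csf1r, Osm, Hey1, Tnf and Il1a passed only through the DiD+ group. Tnfrsf11a and Ctsk passed only through the DiD- group. Such genes passed through the group where they were high, so these counts describe the list and support nothing. The 4 genes with 0 DiD- counts already lay above the median of 0.19, so setting them at their bound could not move it. Leaving out 1 cell ended the call of 7 of the 12 higher and 2 of the 3 lower genes. Without the macrophage-marker wells 7 genes were higher and 4 lower.

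**Figure D5:**
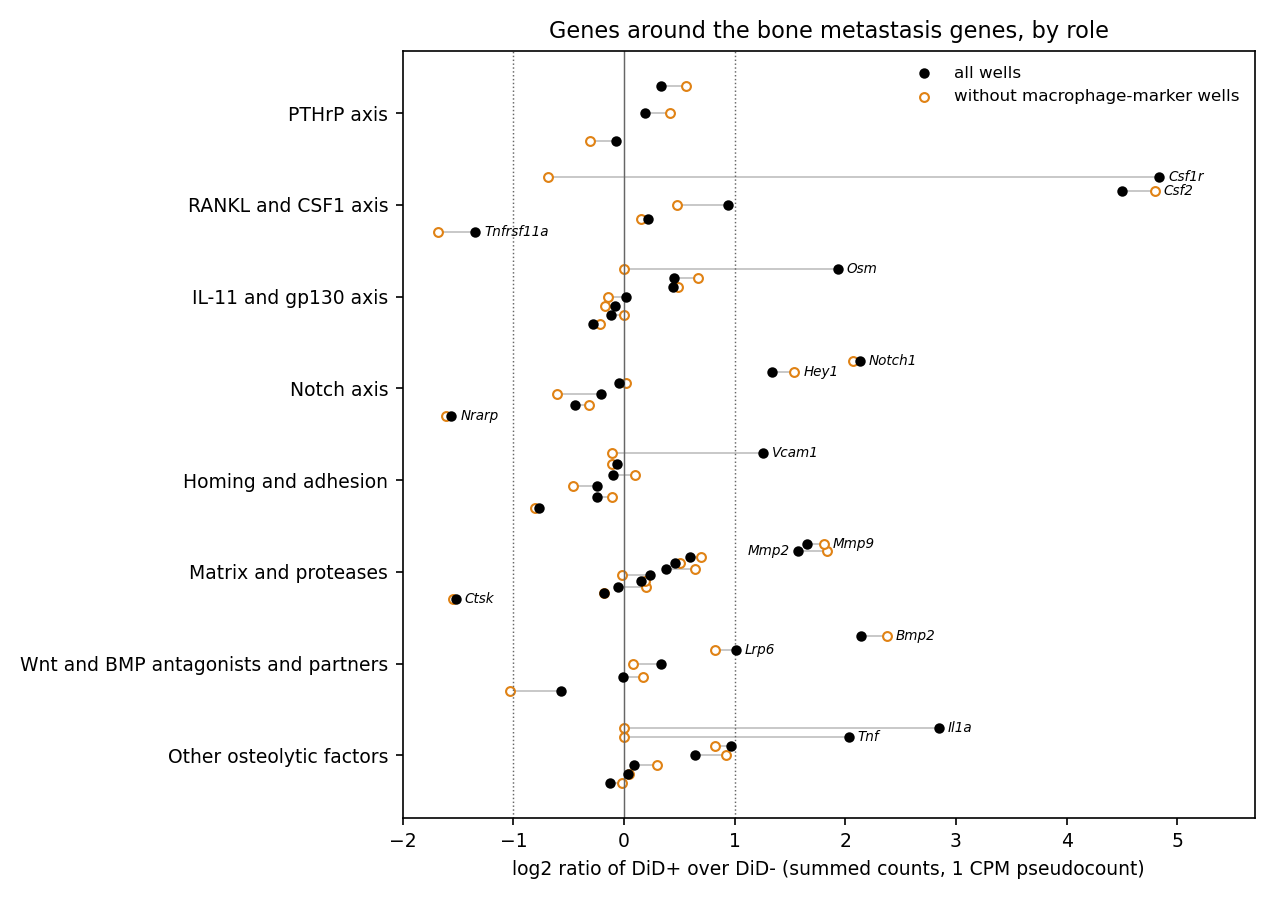
Log2 ratio of DiD+ over DiD- for the 49 further genes that reached 1 CPM in either group, by role (vertical axis): black points use all wells, open orange points leave out the wells with macrophage markers, and dotted lines mark 2-fold. Csf1r, Osm, Vcam1, Il1a and Tnf move to the center without those wells, while Notch1, Bmp2 and Nrarp stay past 2-fold. Csf1r is itself 1 of the markers that picked those wells.

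Of the 7 genes of the PTHrP axis, 3 passed and 0 were past 2-fold. Pth1r, the receptor of PTHrP, had 0 counts in both groups. Among the TGF-beta ligands that induce PTHrP, Tgfb3 had the highest level per kilobase, at 37.05 CPM (DiD+) and 32.3 CPM (DiD-), and Tgfb1 was at 22.1 and 23.2 CPM. The transcription factor Gli2, an activator of Pthlh, was counted in 1 DiD+ cell with at least 10 counts and in 0 DiD- cells.

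In the RANKL and CSF1 axis, 2 genes were higher and 1 lower of 5 that passed. Tnfrsf11a, the gene of the RANKL receptor RANK, was at 0.993 CPM (DiD+) and 4.06 CPM (DiD-) (log2 ratio -1.34, or -0.93 without DiD- cell 71). Csf1r was at 51.5 CPM and 0.837 CPM (4.84), and at -0.69 without the macrophage-marker wells. As Csf1r is 1 of the markers that picked those wells, this fall is partly built into the choice. Csf2 was at 123 CPM and 4.45 CPM (4.50), and at -0.54 without cell 36. Il34, the second ligand of CSF1R, was at 54.0 and 46.3 CPM, with at least 10 counts in 26 and 23 cells.

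For IL-11, the receptor chain Il11ra1 had at least 10 counts in 28 DiD+ and 24 DiD- cells, at 87.7 and 63.9 CPM, and the shared signal chain Il6st (gp130) was at 53.1 and 56.4 CPM. Both chains of the receptor were thus counted in most cells, the cytokine in 4. Socs3, a feedback inhibitor of this pathway and the most abundant gene of this role per kilobase, was at 174 and 213 CPM. Of 7 genes that passed, only Osm, which encodes the related cytokine oncostatin M, was past 2-fold, with 411 DiD+ counts that were all in macrophage-marker wells.

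In the Notch axis Notch1, a receptor for Jagged1, was at 25.1 CPM (DiD+) and 4.95 CPM (DiD-). It reached 10 counts in 14 of 32 and 5 of 28 cells, and its log2 ratio of 2.13, or 1.86 to 2.53 when single cells were left out, was opposite in sign to that of Jag1. Notch2 was at 20.01 and 23.3 CPM. Of the Notch target genes, Nrarp followed Jag1, at 2.64 and 9.72 CPM (-1.56, between -1.95 and -1.27 with 1 cell left out), Hes1 was at 89.4 and 92.3 CPM, and Hey1 had 223 counts in 2 DiD+ cells, 69.5% of them in cell 41. The other ligands Jag2, Dll1 and Dll4 had 0 counts, which left Jag1 as the only ligand of the 4 listed that was counted.

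Among homing and adhesion genes, Cxcl12, the ligand of CXCR4, had at least 10 counts in 25 DiD+ and 24 DiD- cells, at 89.5 and 106 CPM. Ackr3, the other CXCL12 receptor, had them in 22 and 23 cells, at 67.6 and 72.8 CPM, whereas Cxcr4 had them in 3 and 1. Cd44, a receptor of osteopontin, had them in all 60 cells, at 253 and 264 CPM. Itgav, a chain of the osteopontin-binding integrin, was at 53.1 and 62.96 CPM, and its partner Itgb3 had 0 counts. Itga5, a chain of the fibronectin receptor, was at 186 and 318 CPM and had the highest level per kilobase of this role in DiD- cells (64.4 CPM per kilobase), while in DiD+ cells Vcam1 was above it (39.7 against 37.8). Vcam1 was the only gene of 6 past 2-fold (352 and 147 CPM, log2 ratio 1.26), and 69.7% of its DiD+ counts were in macrophage-marker wells, without which it was at -0.11.

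Of the 10 matrix genes and proteases that passed, 2 were higher and 1 was lower. Timp1, an inhibitor of matrix metalloproteinases, was at 384 and 280 CPM and had the highest level per kilobase of this role in DiD+ cells (433 CPM per kilobase), while in DiD- cells its relative Timp2 was above it (349.8 against 315). Sparc (osteonectin), a matrix protein of bone, was at 1484 and 982 CPM, and the membrane collagenase Mmp14 at 358 and 322 CPM, both with at least 10 counts in every cell. Mmp2 (6.37 and 1.47 CPM) had 88.6% of its DiD+ counts in cell 41, and Mmp9 (7.95 and 1.85 CPM) had 56.1% in cell 42. Cell 41, which ranked first for Spp1 and last for Csf1 among DiD+ cells, also ranked first for Sparc (46421 counts), Mmp14 (9015), Mmp3 (633) and Hes1 (3950), and second for Postn (10032 counts). Its Krt8 level, 368 CPM, ranked 29 of 32, above that of cell 36 (358 CPM). Ctsk, the collagen-cleaving protease of osteoclasts, had 1 count in DiD+ and 226 in DiD- cells (log2 ratio -1.52, or -0.80 without DiD- cell 40).

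Of the Wnt and BMP genes, 5 of 12 passed and 2 were higher. Bmp2, a bone-inducing factor, was at 15.7 CPM (DiD+) and 2.79 CPM (DiD-) (2.14, between 1.57 and 2.52 with 1 cell left out). Lrp6, the Wnt co-receptor that DKK1 binds, was at 23.2 and 11 CPM, and its ratio of 1.01 lay so near 2-fold that leaving out any of 27 cells ended the call. The inhibitors Sfrp1, Sost, Nog and Kremen2 had 0 counts, as did Dkk1.

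Among the other osteolytic factors, the inflammatory cytokines Il1a (904 counts) and Tnf (450 counts) were past 2-fold higher, by at least 246-fold and 123-fold over a DiD- limit of 3 counts. All of these counts were in macrophage-marker wells. Cell 19 held 69.8% of the Il1a counts, and the log2 ratio of 2.85 became 1.56 without it. Cell 21 held 68.4% of the Tnf counts, and the ratio of 2.03 became 1.00 without it. Ptgs2, the prostaglandin synthase COX-2, was at 148 and 139 CPM, Ccn2, a TGF-beta target of osteolytic breast cancer cells, at 132 and 144 CPM, and the chemokine Ccl2 at 86.8 and 55.3 CPM, with 75.6% of the DiD+ counts in cell 68. Runx2 was at 6.57 and 6.39 CPM. For these 4 genes the group levels differed by less than 2-fold.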

How the data were processed

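Single PyMT-Bo1 cells (32 DiD+, 28 DiD-) were the samples. Per the labels and methods, the authors aligned reads with STAR to GRCm38/mm10 with ERCC spike-ins and transgenes added and deposited RSEM's estimated counts for 47825 entries (47729 mouse genes, 92 spike-ins, 4 transgenes), without normalization. They also deposited a normalized signal table made with BASiCS (14013 entries, 7 of the 10 genes), used as an alternative scaling. No column was left unused, and among the 60 cells 0 pairs were identical, and each cell is its own library.

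Estimated counts were rounded and summed per group over mouse genes. A group is 1 sample, so no p-value or standard error was computed. Genes past 2-fold were counted at 1 or 10 CPM in a group. All 10 genes are named. Of the 74 further genes, those past 2-fold, the highest per kilobase in each role (in either group) and partners of the 10 are named, the partners after their values were seen, as were single cells. Members and lists were chosen with earlier results of these data known. A marker was present at 10 counts, and a well was assigned a host type where at least 50% of its markers were. Doublets were not called, and wells with RNA of several cells were kept unless stated. Gene positions and exon lengths are from GENCODE M21.

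Alternatives were TMM, DESeq2 and spike-in scaling, means of cell CPM or BASiCS values, pseudocounts of 0.1 and 10 CPM, no minimum or 10 CPM, 1.5-fold, other count minimums, thinning, and leaving out host-marker wells or each cell in turn. Python 3.11.15, numpy 2.4.6, pandas 2.3.3 and scipy 1.17.1 were used, and scaling factors alone came from edgeR 4.0.16 and DESeq2 1.42.0 under R 4.3.3. The ratio was tried on simulated group sums with known changes in genes of at least 10 CPM. The simulation held Poisson counting error and no differences between cells, so it cannot speak to ratios set by few cells.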

Additional observations from a re-analysis of the deposited data

How the results depend on the processing

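With 1 sample per group no alternative shows whether a ratio would recur. The few cells with a count limit Il11, Cxcr4 and Tnfrsf11b. Thinning to equal depth left the shares of cells with Il11 and Tnfrsf11b as they were and took Cxcr4 from 18.8% to 12.5% of DiD+ cells. A minimum of 10 counts took Il11 from 7.14% to 0% of DiD- cells. Pthlh, Jag1, Csf1 and Spp1 kept their direction under all scalings, pseudocounts, left-out wells and single cells left out. For Spp1, none of these left out together the 6 DiD+ cells that held 70.6% of its DiD+ counts. Its medians over cells were nearly the same in both groups, at 2127 and 2122 CPM. Cxcr4 turned from 1.10 to -0.13 without macrophage-marker wells and to -0.14 without host-marker wells, since 211 of its 219 DiD+ counts were there.

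A pseudocount of 10 CPM and a minimum of 10 CPM each left 1 of the 10 genes higher, 5 and 6 of the further genes higher, and 0 of these lower. Medians here are over the genes that passed the minimum, and a gene can enter or leave this set between settings. Tnfrsf11b, for example, left it without cell 17, so moves in a median are not only changes in ratios. Among the 10 genes the median was 0.25 with spike-in scaling, and 1.28 and 0.16 with pseudocounts of 0.1 and 10 CPM. It was -1.05 at a minimum of 10 CPM, 0.53 without macrophage-marker wells and 0.44 without host-marker wells. The median of the further genes was -0.34, 0.12 and 0.11 with spike-in scaling and without these wells. Higher further genes fell to 7 without macrophage-marker wells, and lower ones rose to 5 with spike-in scaling and without host-marker wells. With 1 cell left out, 3 to 4 of the 10 genes were higher and 2 lower, with a median of 0.38 (without cell 17) to 1.15, and 10 to 14 further genes were higher and 2 to 4 lower, with a median of 0.065 to 0.30. The difference in median genes held per cell was -0.5, and -1 to 0 with 1 cell left out. No paired analysis was possible because the labels give the groups no shared replicate numbers.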
